A study of Rattus norvegicus with 24 samples.

Results

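Of the 32883 reference genes in the tables of rat frontal cortex, 10 genes of the autophagy pathway are described here: Ulk1, Nrbf2, Becn1, Atg14, Atg5, Atg7, Map1lc3a, Map1lc3b, Gabarapl1 and Sqstm1. They were chosen by name as components of the pathway, with earlier results of these data known. Each name matched 1 reference gene, and all 10 were high enough to be tested. RNA was taken from the frontal cortex of adult male Sprague-Dawley rats 24 h after they had inhaled an aerosol of tungsten particles at 0 mg/m3 (Control), 5 mg/m3 (Low) or 80 mg/m3 (High), with 8 rats in each group. The stranded RNA-Seq library of each rat was quantified by the authors with StringTie, which builds transcripts from mapped reads and gives their abundance. No genetic change or other agent is named for any group, and each rat is called here by its library number, 49 to 72. Every sample title also carries the word Repeat, which the labels leave without a meaning. The unit used below is scaled coverage, which is the mean read depth per base of a gene, divided by the sum of this depth over all reference genes of the library and multiplied by 1000000. Because depth is counted per base, levels can be set in order between genes. Positions below are those of the tables and carry no build name, since the tables place genes up to base 282724300 of chromosome 1, past the end of that chromosome in mRatBN7.2, the build in the processing notes of the submitters.

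Autophagy delivers cell material to the lysosome in a double membrane, the autophagosome, and neurons, which do not divide, depend on it to remove aggregated proteins and worn organelles. A kinase complex around Ulk1 starts the process, and a class III phosphatidylinositol 3-kinase complex with Becn1, Atg14 and Nrbf2 marks the membrane where the autophagosome forms. Conjugation enzymes such as Atg7 and Atg5 then attach proteins of the Atg8 family to this membrane, where cargo receptors such as Sqstm1 bind them.

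Summed reference coverage, in units of 1000000, lay between 1.67 and 2.82 in Control, between 1.64 and 3.07 in Low and between 1.77 and 2.67 in High. Loci assembled by StringTie, listed beside the reference genes, were 46334 to 159573 per table in Control, 50235 to 64010 per table in High, and 0 in every Low table. The kind of table and the Low exposure therefore cannot be told apart in any comparison with Low. Libraries 56 to 62, which are 1 Control and 6 Low rats, stood apart from the other 17. Of 1654 reference genes that lie inside another gene on the opposite strand, 25.6% to 30.8% were above a scaled coverage of 1 in these 7 libraries and 21.9% to 24.7% in the others, and together such genes held 1.61% to 1.99% of reference coverage against 4.06% to 6.30%. This grouping was taken from the values and not from the labels, and leaving the 7 libraries out leaves 2 Low rats. Genes of the mitochondrial genome held 21.8% to 33.8% of reference coverage, most in Low replicate 61. Defining markers of cortex were present in every group. The 7 markers of cortical excitatory neurons summed to a scaled coverage of 775 to 1141 (Control), 659 to 1117 (Low) and 378 to 1085 (High), lowest in High replicate 67. Of these, 0 were at 0 in all libraries of a group. Markers of inhibitory neurons, astrocytes, oligodendrocytes and microglia, 6 each, all had a median above 0 in each group. Between Low and Control 0 of the markers tested passed the threshold. The 6 markers of striatal medium spiny neurons summed to 331 to 732 (Control), 243 to 555 (Low) and 175 to 1160 (High). The highest was High replicate 65. Those of choroid plexus summed to 1.77 to 70.7, 2.88 to 13.3 and 1.32 to 29.1 in the same order. Those of blood summed to 757 to 1666, 460 to 1371 and 549 to 1750. The part of striatum, choroid plexus and blood in the results below was not tested. Of 5 endothelial markers 4 were found and 3 tested, as Cldn5 was too low. The lowest of the 4 had a median of 0 in each group and was at 0 in every Low rat. Between Low and High, Slco1a4 had a log2 difference of 0.33 (limma, adjusted p = 0.0235). Flt1 differed by 0.25 (adjusted p = 0.124) and Tek by 0.075 (adjusted p = 0.685), and neither was called. The part of endothelial cells in the results below was not tested. In tissue RNA, fewer cells of a type and less RNA per cell cannot be told apart.

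The members covered a 49.6-fold range of levels. Gabarapl1, an Atg8 family protein abundant in brain, was the highest, with a mean scaled coverage of 549 ± 53.5 (SD, n = 24 rats). Sqstm1, the receptor that carries ubiquitinated cargo to the autophagosome, followed at 295 ± 24.04, and Map1lc3a, another Atg8 family protein, at 256 ± 34.6 (SD, n = 24 each). Sqstm1 was above Map1lc3a in 21 of 24 rats and their ranges overlapped, so this pair was not separated in every rat. Becn1, the scaffold of the phosphatidylinositol 3-kinase complexes, had 58.9 ± 6.52 (SD, n = 24) and was above the next gene in all 24 rats. The ranges of Ulk1 and Map1lc3b overlapped, with Ulk1 the higher in 20 of 24 rats (35.4 ± 4.48 against 29.3 ± 3.67, SD, n = 24). In FPKM, set beside coverage further below, this order was reversed, with means of 38.3 for Map1lc3b and 14.1 for Ulk1. Nrbf2, a regulatory subunit that binds Atg14 in its complex, had 16.8 ± 2.13 (SD, n = 24), near the middle of all genes tested (percentile 52.4). It was above Atg5, at 15.8 ± 1.60, in 17 of 24 rats. Atg14 and Atg7 were the lowest at 11.8 ± 1.32 and 11.1 ± 1.62 (SD, n = 24 each), and Atg14 was the higher in 16 of 24 rats. Rats of 1 group differed little in these genes. The median coefficient of variation of the 10 members in Control was 9.93%, against 16.9% over all genes tested. The 2 sets were not matched for level, and the members lay between percentiles 41.3 and 99.0 of all genes tested.

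**Figure D1:**
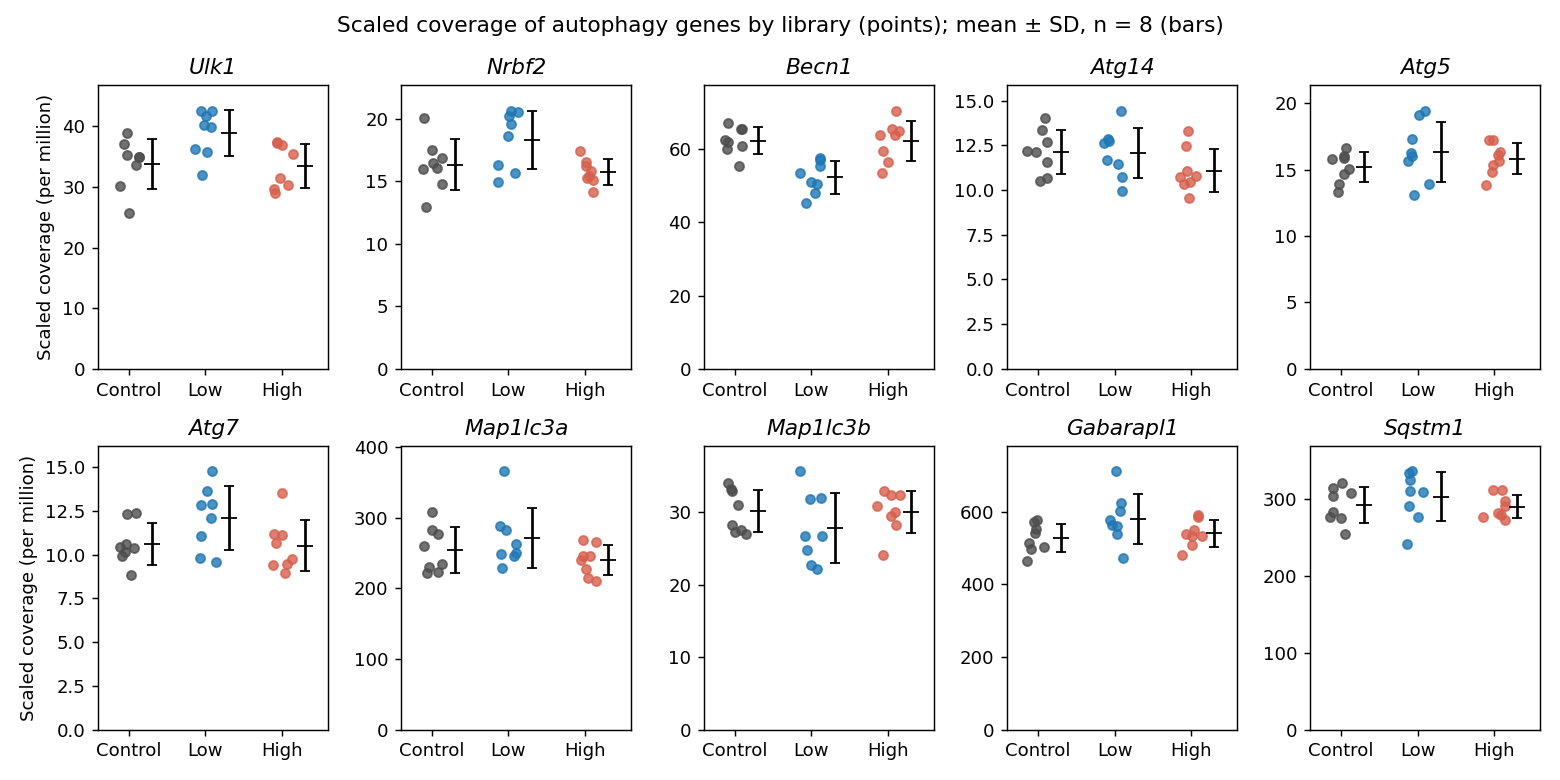
Scaled coverage (reference genes of a library sum to 1000000, vertical axis from 0) of the 10 autophagy genes in each of the 24 libraries (points), by group, with mean and SD (bars, n = 8). Becn1 lay between 45.2 and 57.5 in Low and between 55.4 and 67.0 in Control, while the other members overlapped more widely.

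Promoter sequences of RefSeq (build GRCr8) were found for 8 of the 10 members, all but Becn1 and Map1lc3a. They are shown for Nrbf2 and for the members whose stretch before the start site holds a searched motif. The 250 bases before the start are written 5′ to 3′ on the plus strand, for Nrbf2 at chr20:21307150-21307399, for Atg5 at chr20:49380585-49380834 and for Map1lc3b at chr19:66574345-66574594. Capitals mark the E-box CACGTG in Atg5 and, in Map1lc3b, TGAGTCA, the reverse complement of the AP-1 motif TGACTCA.
Nrbf2: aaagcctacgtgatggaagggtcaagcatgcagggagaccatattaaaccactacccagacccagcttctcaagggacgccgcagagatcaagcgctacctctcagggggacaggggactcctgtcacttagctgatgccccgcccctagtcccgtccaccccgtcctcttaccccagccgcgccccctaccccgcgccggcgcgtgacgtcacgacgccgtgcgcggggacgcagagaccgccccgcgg
Atg5: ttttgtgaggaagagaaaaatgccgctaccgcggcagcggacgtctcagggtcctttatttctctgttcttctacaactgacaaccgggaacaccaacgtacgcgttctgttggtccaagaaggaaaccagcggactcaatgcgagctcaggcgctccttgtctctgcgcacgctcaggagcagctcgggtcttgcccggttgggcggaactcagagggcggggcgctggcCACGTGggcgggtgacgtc
Map1lc3b: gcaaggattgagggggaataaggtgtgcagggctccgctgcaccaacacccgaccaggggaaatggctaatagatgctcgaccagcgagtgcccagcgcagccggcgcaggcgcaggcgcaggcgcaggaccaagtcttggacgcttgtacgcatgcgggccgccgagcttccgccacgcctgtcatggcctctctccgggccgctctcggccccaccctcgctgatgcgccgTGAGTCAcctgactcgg
In the 300 bases from 250 before to 50 after the start, searched on both strands, the E-box was in Atg14 and Atg5, 2 of 8 members, against 6.42% of all 33469 promoters. AP-1 was in 1 of 8 (4.63% of all), and the antioxidant response core TGACNNNGC was in the same gene, Map1lc3b, and in 12.1% of all. TCACGTGA, the CLEAR motif of lysosomal genes, which contains the E-box, was in 0 of 8 members, in 9 of 70 other autophagy genes and in 0.777% of all promoters. The bases G and C made up a median of 62.8% in the 8 members, against 51.7% over all promoters. The shares above were not matched for this. These matches are descriptions of sequence.

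Whether the low dose changed these genes was examined by comparing Low with Control. In scaled coverage Becn1 was lower in Low, and the other 9 members were not past the threshold of an adjusted p under 0.05 (limma on log2(scaled coverage + 1), Benjamini-Hochberg over all 15644 genes tested). This is 1 of 10 members, read against 6.11% of all genes tested, 1.23% higher and 4.88% lower. By sign, 7 members were higher and 3 lower, with a median log2 difference of 0.092, against a median of 0.062 over all genes, of which 66.5% were higher. In 0 members did the groups fail to overlap, against 1.53% of all genes. For Becn1 the FPKM column gave the opposite sign, as described below, and the exposure and the kind of table cannot be told apart.

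Of the kinase that starts autophagy, Ulk1 (ENSRNOG00000037505, chromosome 12, 51908448 to 51934702, plus strand), scaled coverage was between 25.8 and 38.9 in Control with a median of 35.0, 31.9 to 42.6 in Low with a median of 40.0, and 29.1 to 37.4 in High with a median of 33.5. The groups overlapped, although 5 of 8 Low rats were above the highest Control rat. The log2 difference of Low from Control was 0.20 (standard error 0.081, limma, adjusted p = 0.177).

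Nrbf2 (ENSRNOG00000000641, chromosome 20, 22728208 to 22746474, plus strand) had scaled coverage of 12.95 to 20.1 in the Control rats (median 16.3), 14.95 to 20.7 in the Low rats (median 19.1) and 14.1 to 17.5 in the High rats (median 15.6). Control and Low rats overlapped over most of their range, and 3 of 8 Low rats were above the highest Control rat. Its log2 difference was 0.16 (standard error 0.079, 95% interval -0.0066 to 0.32, limma, adjusted p = 0.292).

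Becn1 (ENSRNOG00000020513, chromosome 10, 89209940 to 89225297, minus strand) had scaled coverage of 55.4 to 67.0 in Control rats with a median of 62.2, 45.2 to 57.5 in Low rats with a median of 52.2, and 53.4 to 70.4 in High rats with a median of 63.8. All 8 Low rats were below the median of Control and 5 were below the lowest Control rat, so the groups overlapped only at their edges. The log2 difference was -0.25 (standard error 0.060, 95% interval -0.38 to -0.13, limma, adjusted p = 0.00993), which is a change of -16.0%. An exact Wilcoxon rank-sum test gave an adjusted p of 0.0457. With libraries 56 to 62 left out, the difference was -0.33 and not called (limma, adjusted p = 0.112, 7 Control and 2 Low rats). In that fit 0 of 10 members passed the threshold, beside 2.20% of all genes. The direction depended on the column of the tables that was read, as described next.

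In each library, FPKM is a fixed multiple of coverage for most genes, but not for all, and the ratio used here is FPKM over coverage divided by this multiple, so that it is 1 where both columns carry the same value. For Nrbf2, Atg14, Ulk1, Map1lc3a and Gabarapl1 it was 1 in every library, within 0.1%. For Becn1 the median ratio was 1.46 in Control, 2.14 in Low and 1.47 in High, and all 8 Low rats (2.02 to 2.35) were above every other rat, as they were in 12.2% of genes tested. For Map1lc3b it was 1.67 in Control, 5.74 in Low and 1.39 in High, with 1 Control library near the level of Low, at 5.46 in replicate 56. That is the Control table with the most assembled loci. Sqstm1 had medians of 1.22, 1.35 and 1.22, and Atg5 of 1.002, 1.105 and 1.003. Atg7 was at or near 1 except in Control replicate 56, where it was 2.14.

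Read from FPKM divided by its sum over the reference genes, the difference of Becn1 between Low and Control was 0.21 on the log2 scale (limma, adjusted p = 0.0710), the opposite sign to that of coverage. On this scale Becn1 was 91.0 ± 12.7 in Control, 104 ± 7.50 in Low and 88.2 ± 6.78 in High (SD, n = 8 each). Map1lc3b was not past the threshold in coverage and was 1.45 higher in Low than in Control by this reading (log2, limma, adjusted p = 1.29e-05). Such an unequal pair of columns was not particular to these genes. The ratio was at least 1.25 times higher in Low than in Control for 5.61% of genes tested, and 10.5% of these were called lower in Low, against 4.32% of the rest. The part of the kind of table in the change of Becn1 cannot be told apart from that of the exposure.

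**Figure D2:**
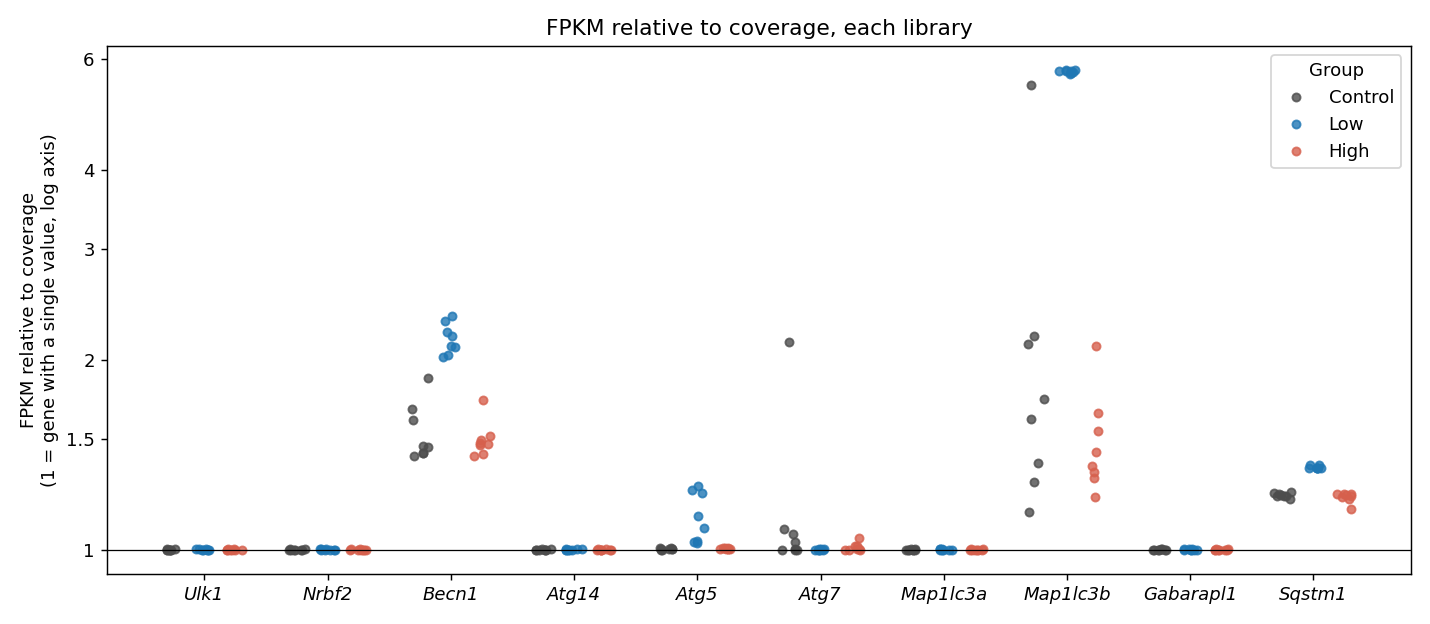
FPKM relative to coverage (log axis, 1 where both columns carry the same value) of the 10 members in each library, coloured by group. Becn1 and Map1lc3b stand above 1 in all groups and highest in Low, with Control replicate 56 at 5.46 for Map1lc3b, while 5 members sit at 1, within 0.1%.

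Atg14 (ENSRNOG00000011873, chromosome 15, 24343314 to 24374753, minus strand), which directs the complex to the site of autophagosome formation, had scaled coverage of 10.5 to 14.1 in Control (median 12.1) and 9.93 to 14.4 in Low (median 12.1). The groups covered nearly the same range, with a log2 difference of -0.011 (95% interval -0.17 to 0.15).

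The conjugation enzymes were represented by Atg5 and Atg7. Atg5 (ENSRNOG00000000322, chromosome 20, 49318308 to 49393140, plus strand), which is joined to Atg12, had 13.3 to 16.6 in Control (median 15.4) and 13.1 to 19.4 in Low (median 16.1). Atg7 (ENSRNOG00000007486, chromosome 4, 146598413 to 146777124, plus strand), the enzyme that activates both ubiquitin-like proteins, had 8.85 to 12.4 in Control (median 10.4) and 9.61 to 14.8 in Low (median 12.4). In both genes the groups overlapped, with 3 and 4 Low rats respectively above the highest Control rat. The log2 differences were 0.094 for Atg5 (limma, adjusted p = 0.514) and 0.16 for Atg7 (limma, adjusted p = 0.346).

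Of the Atg8 family, Map1lc3a (ENSRNOG00000025443, chromosome 3, 150801289 to 150802935, plus strand) had scaled coverage of 221 to 309 in Control (median 247) and 229 to 366 in Low (median 257). The highest Low value was that of replicate 57, apart from the other 7. Map1lc3b (ENSRNOG00000017905, chromosome 19, 53629779 to 53646058, plus strand) had 26.9 to 33.9 in Control (median 29.6) and 22.1 to 35.6 in Low (median 26.7), and 5 of 8 Low rats were below the lowest Control rat. Gabarapl1 (ENSRNOG00000053362, chromosome 4, 163293724 to 163302858, plus strand) had 464 to 576 in Control (median 528) and 471 to 710 in Low (median 569). These pairs of groups overlapped, and the log2 differences were 0.090, -0.12 and 0.13 in this order (limma, adjusted p = 0.612, 0.479 and 0.290).

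Sqstm1 (ENSRNOG00000003147, chromosome 10, 35704730 to 35716294, minus strand) had scaled coverage of 254 to 322 in Control (median 294) and 242 to 336 in Low (median 310). The groups overlapped and the log2 difference was 0.049 (95% interval -0.082 to 0.18, limma, adjusted p = 0.718). At its edge the gene overlaps Mrnip on the opposite strand, the only overlap of a member with another reference gene, and the library kit is a stranded one. Loci assembled on the strand opposite to a member lay over all 10 members in the table of Control replicate 56, among them Nrbf2, Atg5 and Ulk1, which had one in no other table, and over 2 to 6 members in the other 15 Control and High tables. In replicate 56 they held from 1.79% (Map1lc3a) to 444% (Map1lc3b) of the coverage of the member, with 49.1% for Nrbf2 and 55.4% for Becn1. Those over Atg7 held 428% in Control replicate 49. How well the strand was kept in each library was not tested.

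Low replicate 61, the library with the largest mitochondrial share, was the lowest of the Low rats in 8 of the 10 members, all but Atg5 and Map1lc3a. Control replicate 51, with the largest mitochondrial share in Control (29.97%), was the lowest of its group in 6 members. The part of this share in the differences was not tested. With a sum without mitochondrial genes the log2 difference of Becn1 was -0.23 (limma, adjusted p = 0.00811) and Ulk1 passed the threshold at 0.22 (limma, adjusted p = 0.0418), so 2 of 10 members were called, beside 10.8% of all genes on this scale.

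The high dose was compared with Control in the same fit. Between these groups 0 of 10 members were past the threshold, as were 0% of all genes tested (limma). In 0 members did the groups fail to overlap, against 0.00639% of all genes. At an unadjusted p under 0.05 there were 0 members and 330 of 15644 genes, and 0 genes passed with exact Wilcoxon rank-sum tests. By sign, 2 members were higher and 8 lower, with a median log2 difference of -0.011 against -0.031 over all genes, of which 35.98% were higher. The largest differences were -0.12 for Atg14 and 0.058 for Atg5, and across the members the 95% intervals ran from -0.28 to 0.21. For Nrbf2 the interval was -0.21 to 0.12, around a difference of -0.044. Becn1 had nearly the same mean in both groups, 62.2 ± 5.44 in High and 62.3 ± 3.73 in Control (SD, n = 8 each), with a 95% interval of -0.13 to 0.12 for the log2 difference.

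**Figure D3:**
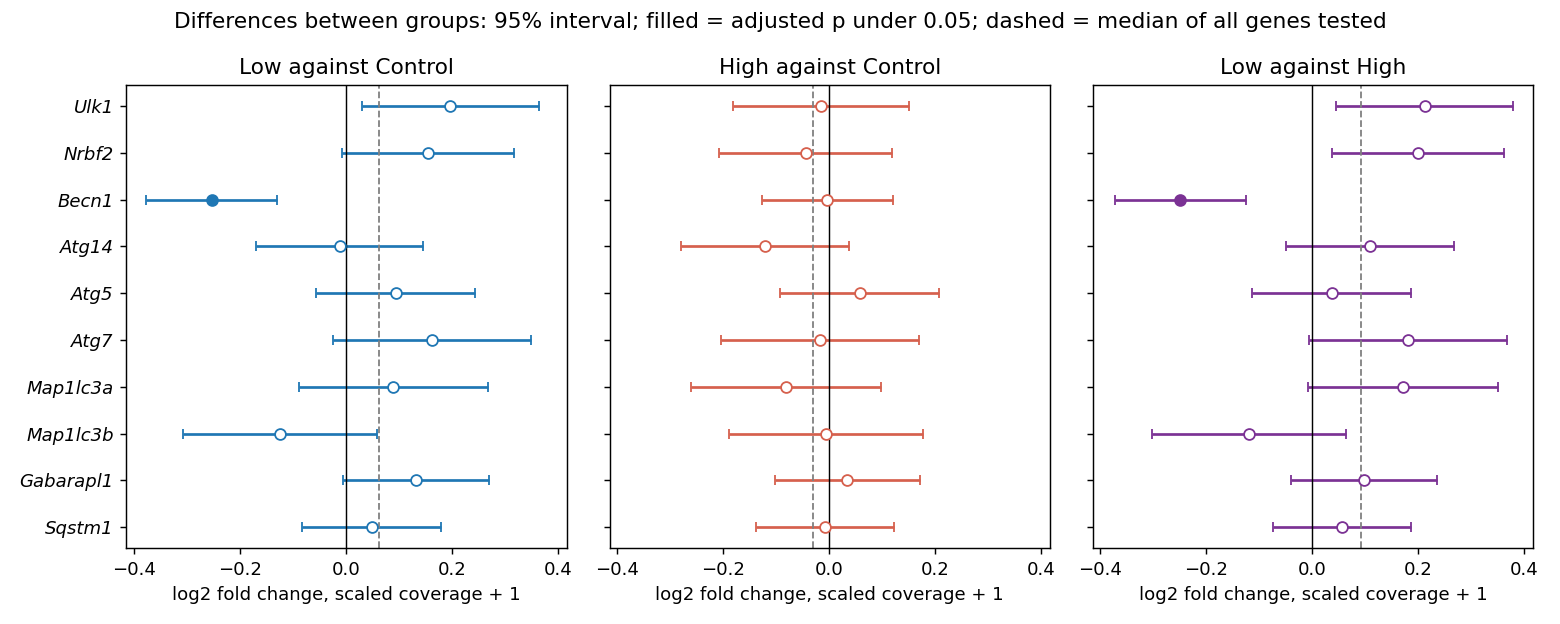
Log2 difference of each member (points) with its 95% interval (bars) in the 3 comparisons, with the zero line (solid) and the median of all genes tested (dashed). Filled points passed an adjusted p under 0.05, which was Becn1 in Low against Control and Low against High, at -0.25 in both.

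The difference between the 2 doses was tested directly by comparing Low with High. The Low rats are those of the comparison with Control, so both comparisons share them. Becn1 was lower in Low, with a log2 difference of -0.25 (standard error 0.060, limma, adjusted p = 0.00710). All 8 Low rats were below the median of High and 4 were below its lowest rat. With exact Wilcoxon rank-sum tests the adjusted p was 0.0514, and in FPKM divided by its reference sum the log2 difference was 0.24 (limma, adjusted p = 0.0217), again of the opposite sign. Becn1 was the 1 member of 10 past the threshold, against 11.7% of all genes tested, 5.3% higher and 6.39% lower, and the median of the members was 0.10 against 0.091 over all genes. With libraries 56 to 62 left out, the difference of Becn1 was -0.33 and not called (limma, adjusted p = 0.101, 2 Low and 8 High rats), and 0 of 10 members passed the threshold, beside 2.26% of all genes.

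Ulk1 and Nrbf2 were the other members with an unadjusted p under 0.05 between the doses, which makes 3 of 10 members beside 29.1% of all genes tested. Ulk1 was above the highest High rat in 5 of 8 Low rats, with a log2 difference of 0.21 (standard error 0.081, 95% interval 0.045 to 0.38, limma, adjusted p = 0.0860). Nrbf2 was likewise above the highest High rat in 5 of 8 Low rats, while the other 3 lay within the range of High, and its difference was 0.20 (standard error 0.079, 95% interval 0.038 to 0.36, limma, adjusted p = 0.0957). Neither passed the threshold with all libraries. Without Low replicate 61 both did (limma, adjusted p = 0.0351 for Ulk1 and 0.0386 for Nrbf2), and without Control replicate 49 Ulk1 did (limma, adjusted p = 0.0412), so 1 to 3 members were called with each library left out in turn.

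Other genes of the pathway were taken from a list of 79 named by role, of which 76 were tested. Between Low and Control 1 of them was past the threshold, against 6.11% of all genes, and by sign 68 were higher and 8 lower, with a median log2 difference of 0.11, while 66.5% of all genes were higher, with a median of 0.062. The called gene was Vamp8, a SNARE protein of the fusion of autophagosomes with lysosomes. Its scaled coverage was 25.9 to 46.5 in the Control rats (median 32.7), 17.04 to 28.7 in the Low rats (median 23.97) and 28.8 to 48.1 in the High rats (median 41.0). The Low rats were all below the lowest High rat, a separation shared by 2.26% of all genes tested, and overlapped the lower Control rats. The log2 difference from Control was -0.53 (standard error 0.13, limma, adjusted p = 0.0134), and its median FPKM to coverage ratio was 1 in each group, within 0.1%. By an exact Wilcoxon rank-sum test the adjusted p was 0.0640. Vamp8 was not called with libraries 56 to 62 left out (-0.39, limma, adjusted p = 0.671), with these libraries as a covariate (-0.33, adjusted p = 0.517) or in the FPKM column as deposited (-0.033, adjusted p = 0.820). In that column the median of all genes was 0.53, against 0.062 in scaled coverage.

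By role, the 5 genes of the Ulk1 kinase complex had a median log2 difference of 0.12 between Low and Control, and the 8 of the phosphatidylinositol 3-kinase complexes 0.056. The largest difference in the first was that of Ulk1 and in the second that of Becn1. Among 10 genes of lipid transfer and membrane supply the largest was 0.19 for Atg2b, a lipid transfer protein (limma, adjusted p = 0.388). Conjugation genes reached 0.17, for Atg10, the enzyme that passes Atg12 to Atg5 (limma, adjusted p = 0.467). All 11 cargo receptors were higher by sign, beside 66.5% of all genes, and 0 were called, with the largest difference 0.17 for Tollip, a ubiquitin-binding adaptor (limma, adjusted p = 0.193). The 14 lysosomal genes had a median of 0.12, with Atp6v1a, the catalytic subunit of the proton pump, at 0.26 (limma, adjusted p = 0.138). All 11 genes of mTORC1 and AMPK control were likewise higher by sign, and the largest was Prkaa2, a catalytic subunit of AMPK, at 0.26 (limma, adjusted p = 0.673).

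Between High and Control 0 of the 76 other genes were past the threshold, with 18 higher and 58 lower by sign and a median of -0.042, while 35.98% of all genes were higher, with a median of -0.031. The largest differences of the roles were -0.18 for Rb1cc1, the scaffold of the Ulk1 complex, -0.100 for Wdr45b, -0.16 for Atg4c, -0.17 for Wdfy3, 0.19 for Vamp8, -0.061 for Ctsl and -0.40 for Prkaa2, each with an adjusted p of 0.999 in limma. Prkaa2 was a low gene with a wide spread, at 8.53 ± 2.996 in Control and 5.97 ± 2.23 in High (SD, n = 8 each).

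Between Low and High 9 of the 76 were past the threshold, which is 11.8% beside 11.7% of all genes tested. Higher in Low were 8 of the 76, beside 5.3% of all genes tested, and 1 was lower, beside 6.39%. The lower gene was Vamp8, at -0.72 (standard error 0.13, limma, adjusted p = 0.000567). Rb1cc1 was 42.4 ± 4.91 in Low and 33.3 ± 4.59 in High (SD, n = 8 each), a log2 difference of 0.34 (limma, adjusted p = 0.0166). Ulk2, the kinase related to Ulk1, differed by 0.29 (limma, adjusted p = 0.0471) and Atp6v1a by 0.29 (adjusted p = 0.04997). Bnip3l, a receptor for mitochondria, was 109 ± 10.3 in Low and 93.0 ± 5.83 in High (SD, n = 8 each), a difference of 0.22 (limma, adjusted p = 0.0114), and Tollip also differed by 0.22 (adjusted p = 0.0496). The other 3, named after their values were seen, were Tax1bp1, Uvrag and Lamp1. Tax1bp1, a cargo receptor, differed by 0.22 (limma, adjusted p = 0.0179), and Uvrag, which binds Becn1 in a complex of endosomes, by 0.19 (adjusted p = 0.0484). Lamp1, a lysosomal membrane protein, differed by 0.18 (adjusted p = 0.0450). How these 3 genes stood with single libraries left out was not examined gene by gene. With each library left out in turn, Vamp8, Rb1cc1 and Bnip3l stayed past the threshold in 24 of 24 fits, while Ulk2 was no longer past it in 18, Atp6v1a in 20 and Tollip in 21. The count of 9 rested on single libraries. It became 16 without Low replicate 61, and 5 without Control replicate 53 or 56, Low replicate 58 or 64, or High replicate 66. It became 4 without Control replicate 54 or 55, Low replicate 59, 60, 62 or 63, or High replicate 65, 68, 69, 71 or 72. Without scaling, the difference of Rb1cc1 was 0.13 and that of Bnip3l 0.0065, and neither was called (limma, adjusted p = 0.835 and 0.992). With libraries 56 to 62 left out 0 of the 76 genes were past the threshold, and Vamp8 was at -0.52 (limma, adjusted p = 0.296).

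**Figure D4:**
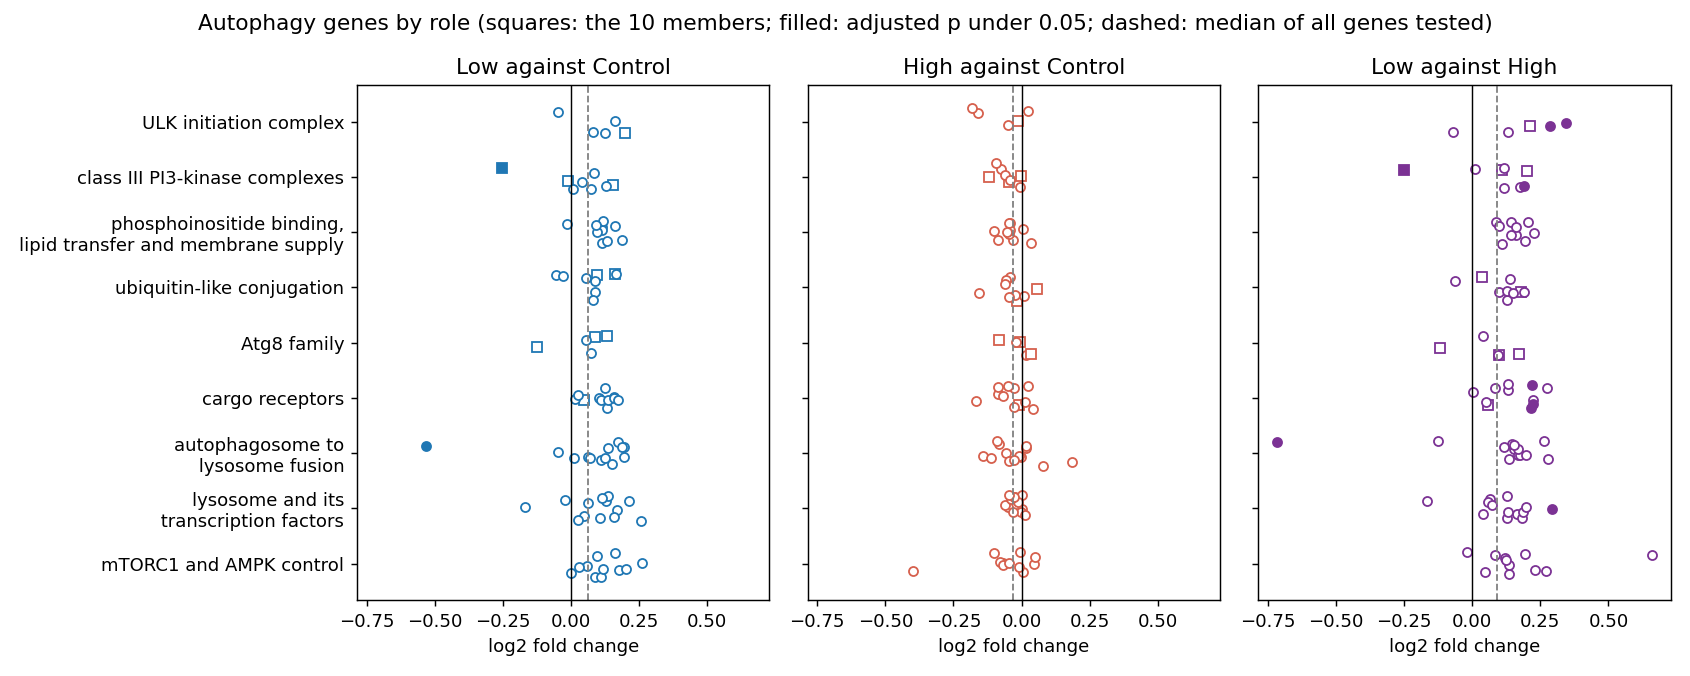
Log2 difference of each tested autophagy gene, by role (rows), in the 3 comparisons. Squares are the 10 members, circles the 76 others, filled where the adjusted p was under 0.05, and the dashed line is the median of all genes tested. Becn1 at -0.25 and Vamp8 at -0.53 are the filled points of Low against Control.

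The genes whose pattern across rats was most like that of Nrbf2 were found from log2 values centred on the group means, over all 24 rats. They were Alg6 (Pearson's r = 0.77), Tpst2 (0.72), Plaat1 (0.71), Tnip1 (0.70) and Mmachc (0.69), and Spearman's rho was 0.76, 0.76, 0.71, 0.71 and 0.70 in the same order. The genes share library, depth and scaling, so these values are a description. Of the members, Ulk1 had the highest r with Nrbf2 (0.51), followed by Atg7 (0.50), while Atg14 had 0.39, Becn1 0.30 and Map1lc3b 0.13, the lowest. Over the other 15643 genes tested the median r was 0.11, with Ulk1 at percentile 97.7 and Map1lc3b at 54.0.

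In the Control and High tables, coverage can also stand on an assembled locus over the same place. Such a locus lay on the same strand over each of the 10 members in all 16 of these tables. Its coverage was equal to that of the reference gene, within 1%, in 15 of 16 tables for Nrbf2 and 16 of 16 for Atg7. For Becn1 it was 58.1% to 100% of the reference coverage (median 94.5%) and for Sqstm1 33.2% to 134% (median 52.8%). Map1lc3b stood apart, since its loci had 165% to 606% of the reference coverage, with a median of 529% in Control and 262% in High. For Map1lc3b the reference entry thus held less than the locus in each of these tables. Its order among the members changed from 6 to 4 when locus coverage was added to that of the reference gene. That sum counts coverage again where the locus repeats the reference gene, as for Nrbf2 and Atg7. It also takes in the Low tables, which hold no loci, so the changed order is not a better measure of level.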

How the data were processed

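The authors deposited 1 gene table per rat, made from trimmed reads that were aligned and assembled. Per the labels, their processing notes name FastQC, Trimmomatic, TopHat2 and StringTie. Versions and options: not given in the sources used here. The deposited coverage is a mean depth of reads over the bases of a gene, unscaled, and the tables hold no read counts. The deposited FPKM was scaled by StringTie for length and library. In Low tables the deposited TPM sums to 1000000, and in Control and High tables, where it also covers assembled loci, it sums to more, so the authors' values there were treated as a score and not as TPM.

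Coverage of rows of the same gene was summed and scaled as described above. Genes with a mean of at least 1 were kept (15644), and limma 3.58.1 (trend and robust, R 4.3.3) was fitted to log2(value + 1) of all 24 libraries in 3 groups, two-sided. This scale understates changes of low genes. The members, gene lists and alternatives were chosen with earlier results of these data known. Members were always named. Other genes were named by the 5 largest called changes in each direction, the largest change of each role and the 5 highest correlations with Nrbf2. Atg4a, Retreg1 and Prkag1 were not found by name. The fits and the exact Wilcoxon tests were first tested on simulated data in which the changed genes were known. Depth as a number of reads is unknown. Python 3.11.15, pandas 2.3.3, scipy 1.17.1 and matplotlib 3.10.9 were used.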

Additional observations from a re-analysis of the deposited data

Results flagged for a closer look

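In Low replicate 57 the scaled coverage of Map1lc3a was 366, while the other 7 Low rats lay between 229 and 289, a gap that is 0.562 of the range of the group. Among the 30 sets of 8 values, 10 members in 3 groups, this was the 1 library set apart by Dixon's ratio, where chance flags about 1 in 20 groups and so 1.5 here. In the same library Gabarapl1 was also the highest of its group, at 710, as were Nrbf2 at 20.7, Atg5 at 19.4 and Map1lc3b at 35.6.

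The difference between both doses was past the threshold for Becn1. Low was lower than High by a log2 difference of -0.25 (limma, adjusted p = 0.00710), with 8 of 8 Low rats below the median of High. Between High and Control the difference was -0.0034 (limma, adjusted p = 0.999). With libraries 56 to 62 left out the difference between the doses was -0.33 and not called (limma, adjusted p = 0.101). The FPKM column gave the opposite sign, and since the Low tables alone lack assembled loci, the exposure and the kind of table cannot be told apart.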

How the results depend on the processing

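Each comparison was repeated with a pseudocount of 0.1, without the filter, with a minimum mean of 5, with other scalings, with the other columns, with only the groups compared, exact Wilcoxon tests, libraries 56 to 62 as a covariate, and each library left out. FPKM divided by its reference sum and libraries 56 to 62 left out were added after seeing the data. Over 481 repeats of the differences of named genes, other than those that leave out 1 library, 356 kept direction and side of the threshold and 57 reversed. The causes were not tested. No paired analysis was possible because the library numbers are not shared between groups.

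Between Low and Control, the members called (1) became 0 without scaling, 2 with a sum without mitochondrial genes, 10 with FPKM, 6 with TPM and 2 with scaled FPKM, where 4.44%, 10.8%, 89.7%, 25.4% and 11.8% of all genes were called. They became 0 without libraries 56 to 62 (2.20% of all genes). The other autophagy genes called (1) became 5, 74, 26 and 8 under the last 4 of the first 5, and 0 with the covariate (2.31% of all genes), Wilcoxon tests (2.38%) and without libraries 56 to 62. The sign of the log2 difference reversed for Becn1 to 0.74 with FPKM, 0.33 with TPM and 0.21 with scaled FPKM, and for Map1lc3b to 1.95, 1.57 and 1.45. It reversed for Atg14 to 0.42 with FPKM, 0.078 with TPM and 0.012 without mitochondrial genes, for Atg7 to -0.019 with scaled FPKM and for Sqstm1 to -0.010 with median-of-ratios scaling. Without libraries 56 to 62 it reversed for Sqstm1 to -0.0023 and Map1lc3a to -0.0997. Without scaling, Becn1 was -0.29 and not called (limma, adjusted p = 0.429).

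Between High and Control the count stayed at 0 under every alternative, while small differences changed sign. Without scaling, which took the median over all genes from -0.031 to 0.14, the values were 0.13 for Nrbf2, 0.18 for Becn1, 0.051 for Atg14, 0.16 for Atg7, 0.17 for Ulk1, 0.18 for Sqstm1, 0.10 for Map1lc3a and 0.18 for Map1lc3b. Median-of-ratios scaling gave 0.033 for Becn1, 0.017 for Atg7, 0.022 for Ulk1, 0.029 for Sqstm1 and 0.031 for Map1lc3b. A sum without mitochondrial genes gave 0.021 for Becn1, 0.0047 for Atg7, 0.0089 for Ulk1, 0.016 for Sqstm1 and 0.019 for Map1lc3b. FPKM gave 0.0012 for Nrbf2, 0.0086 for Becn1, 0.031 for Ulk1 and 0.031 for Sqstm1, and TPM gave 0.0014, 0.0088, 0.033 and 0.031. Becn1 was 0.0055 with the covariate.

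Between Low and High, the members called (1) became 2 without mitochondrial genes, 10 with FPKM, 5 with TPM, 3 with scaled FPKM, and 0 with the covariate, with Wilcoxon tests and without libraries 56 to 62. All genes called were 16.7%, 89.8%, 25.2%, 16.8%, 2.26%, 7.33% and 2.26% in this order. With the covariate, Becn1 had an adjusted p of 0.0630 (limma). The other autophagy genes called (9) became 4 without a filter (7.85% of all genes), 5 with a minimum mean of 5 (10.1%), 1 without scaling (7.99%), 4 with median-of-ratios scaling (11.2%), 16 without mitochondrial genes, 74 with FPKM, 23 with TPM, 0 with the covariate and without libraries 56 to 62, and 5 with Wilcoxon tests. Becn1 reversed to 0.73, 0.32 and 0.24 with FPKM, TPM and scaled FPKM, and Map1lc3b to 2.24, 1.86 and 1.78. Without scaling the median over all genes went from 0.091 to -0.12, and the values were -0.0068 for Nrbf2, -0.095 for Atg14, -0.17 for Atg5, -0.021 for Atg7, -0.00086 for Ulk1, -0.16 for Sqstm1, -0.047 for Map1lc3a and -0.12 for Gabarapl1. Median-of-ratios scaling gave -0.056 for Atg5 and -0.039 for Sqstm1, and the covariate gave -0.0040 for Atg5.

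With each library left out, the members called between Low and High were 1 to 3 and the other genes 4 to 16, and in the comparisons with Control the counts did not move. Becn1 stayed called each time, from -0.28 to -0.22 against Control and -0.28 to -0.22 against High. Signs reversed in Atg14 between Low and Control (-0.047 to 0.024), and between High and Control in Becn1 (-0.029 to 0.027), Atg7 (-0.066 to 0.013), Ulk1 (-0.068 to 0.015), Sqstm1 (-0.036 to 0.012) and Map1lc3b (-0.026 to 0.038). With FPKM as deposited, the median of all genes was 0.53 between Low and Control, and with TPM 0.17. The precision is limited by 8 rats a group, and the depth in reads is unknown.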
